A study of Drosophila melanogaster with 82 samples.

Results

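Heart-leading transcripts are the 178 of 16637 measured transcripts whose array signal was at least 2-fold higher in the heart line than in any of the 6 other tissue lines. The signal reads ribosome-bound message of adult Drosophila melanogaster females on rich food. Where another line gave no signal above the control probes, the fold in message is only a lower bound, which can be under 2. The 178 transcripts were chosen on a log2 scale shared by all 82 arrays. For each transcript the mean of the heart pools on rich food (AL) was set against the highest mean of the other AL groups, and a difference of 1 log2 unit or more made it a member. That difference is called the AL margin. The AL levels therefore chose the members and are given below as a description, with no test. Pools on restricted food (DR) entered the choice only by helping to set the shared scale. Heart was the highest AL group by any margin in 1317 transcripts. The last members inside the threshold were FBtr0087949, with an AL margin of 1.0025, and FBtr0112561, with 1.0013. The first outside it were FBtr0075408 at 0.9977 and FBtr0085066 at 0.9938.

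The series asks how the response to nutrients differs between tissues. Every line carried 1 copy of UAS-RpL13A-His6FLAG, a FLAG-tagged ribosomal protein, and 1 copy of a GAL4 driver that switches it on. The drivers were HAND4.2-GAL4 for heart, C42-GAL4 for Malpighian tubule, C155-GAL4 for neuron, S106-GS-GAL4 for fat body, MYOIA-GAL4 for gut, MHC-GAL4 for muscle and NGT-GAL4 for germ line. S106-GS is a GeneSwitch driver, a kind that needs a drug to become active, and the labels used here mention no such drug, so how far the fat body values come from fat body was not tested. Flies ate AL food (5% yeast extract) or DR food (0.5%) for 10 days and were taken at 13 days of age. A sample is 1 pool of about 100 females, or 200 for the neuron line, homogenised whole, with tagged ribosomes and their messages pulled down on FLAG beads and hybridised to single-colour NimbleGen arrays. Each of the 14 groups of tissue and food had 6 pools, except that heart AL and neuron AL had 5 each. A tissue here means the cells in which its driver was active plus whatever else bound to the beads. No pool of flies without a driver is among the 82 arrays, and fewer cells of a type and less message per cell cannot be told apart.

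The fly heart, or dorsal vessel, is a muscular tube along the back that pumps haemolymph through the open body cavity. It is flanked by pericardial nephrocytes, which filter the haemolymph and store what they take up. Hand is a transcription factor of both the contractile heart cells and the pericardial cells, so a Hand driver can mark either kind. The Malpighian tubules make the primary urine by secretion. Levels of the marker genes of heart and of other cell types could not be read. Of 57 marker genes listed, 9 of them for heart, 0 could be matched to a transcript identifier, so the labelled tissue was not checked against markers. The gene table used here pairs 0 of the 178 members with a gene name, so members are given by their FlyBase transcript identifier and no role is stated.

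Each member was read by 8 probes, and its level is their mean log2 intensity. Pools of 1 group resembled each other closely over all transcripts, with a mean correlation to their own group of 0.93 in germ line DR and 0.97 to 0.99 in the other groups. A single pool stood apart from its group in the mean level of the 178 members in 3 of the groups. Tubule AL pool 4 had a mean of 9.72 against 10.50 to 10.61 in the 5 others. It was the lowest tubule AL pool for 155 members (87.1%, against 37.0% of all transcripts), and its correlation with its own group was 0.967. Heart DR pool 6 had a mean of 11.10 against 11.53 to 11.66, and was lowest for 145 members (81.5%, against 33.1% of all transcripts). Fat body AL pool 4 had 9.11 against 9.26 to 9.32. The main counts and medians over the members that rest on tubule AL pool 4 or heart DR pool 6 are followed by their values without that pool. Others are given with all pools only. Among these are the sizes of the AL margins, the DR leads by next tissue or margin size, and the subsets by probe or level.

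On AL food the members stood highest in heart by construction, and the tubule came next. The mean level over the 178 members was 12.12 ± 0.11 (SD, n = 5 pools) in heart AL and 10.42 ± 0.34 (n = 6) in tubule AL. It was 9.32 ± 0.13 (n = 5) in neuron, 9.27 ± 0.08 (n = 6) in fat body, 9.05 ± 0.06 (n = 6) in gut, 8.88 ± 0.10 (n = 6) in muscle and 8.82 ± 0.09 (n = 6) in germ line. The heart and tubule pools overlapped with no other group in this mean, whereas each of the 5 lower groups overlapped with its neighbour in this order. Fat body and gut overlapped only through fat body AL pool 4, at 9.11, below the highest gut AL pool at 9.14. The other fat body AL pools lay at 9.26 or above. The tubule was the next highest tissue for 119 members (66.9%). It was next for 40.1% of the 1317 transcripts with heart highest by any margin, and it was the highest tissue other than heart for 14.4% of all transcripts. Neuron was next for 16 members, gut for 13, germ line for 12, and muscle and fat body for 9 each. The median distance from heart was 1.53 log2 units to tubule, against 2.50 to neuron, 2.67 to fat body, 2.82 to gut, 2.99 to germ line and 3.09 to muscle. With tubule AL pool 4 left out, 155 transcripts met the rule, all of them among the 178, and the tubule was next for 114. Without that pool the mean over the 178 members was 10.56 ± 0.05 (n = 5) in tubule AL, and the median distance from heart to tubule was 1.38.

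**Figure D1:**
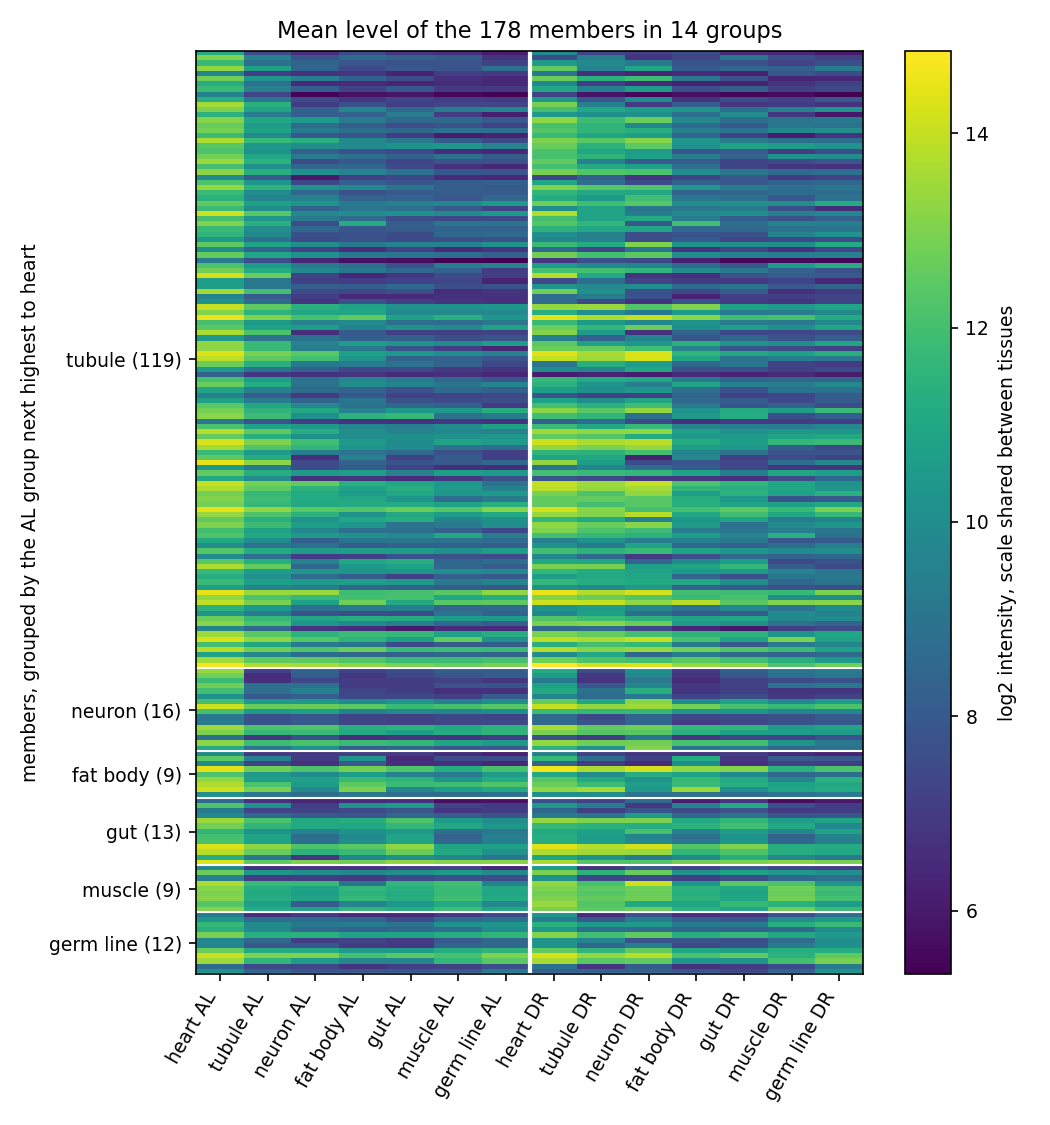
Mean log2 intensity (colour, scale shared between tissues) of the 178 members (rows) in the 14 groups (columns), AL on the left and DR on the right of the white line, with rows grouped by the tissue next highest to heart on AL food. The tubule block holds 119 rows, and neuron DR is brighter than neuron AL over much of the map.

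The AL margins ran from 1.00 to 4.98 with a median of 1.41. They lay under 1.5 in 103 members, at 2 or more in 27 and at 3 or more in 6. In 172 members every heart AL pool lay above every pool of the 6 other AL groups, as in 3.6% of all transcripts. All 8 probes had their highest AL mean in heart for 158 members, and the fewest for any member was 5. Over the 1424 member probes this was so for 97.9%, against 8.37% of the probes of all transcripts. The median margin was 1.34 from the earlier probes of each transcript alone and 1.40 from the later ones. All 178 members were above background, the 95th percentile of the random control probes of an array, on every heart AL array. On the shared scale this background averaged 8.53 in fat body AL, 8.22 in tubule AL and 7.94 in gut AL. It averaged 7.19 in neuron AL, 6.83 in muscle AL and 6.23 in germ line AL, so the counts below also depend on it. In the other AL groups 53 members were not above background on any array in fat body, 46 in gut, 19 in tubule, 13 in neuron, 4 in muscle and 2 in germ line. A fold over such a group is a lower bound and is written as "at least". Shares of all transcripts are not given beside these counts of undetected members, so no trait of the members is read from them.

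A choice made without 1 of the 5 heart AL pools could be read in the pool that was left out. Such choices took 169 to 188 transcripts. Their median margin in the left-out pool was 1.20 for pool 2 and 1.34 or more for the others, and 131 to 161 of the transcripts chosen passed the threshold of 1 in that pool. The means of the other AL groups, against which the left-out pool was read, were the same ones that the choice used, so this is a description and no independent support for the members.

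The largest AL margins belonged to FBtr0110820, FBtr0089014, FBtr0082745 and FBtr0075099, all with neuron next, and FBtr0085616, with tubule next. FBtr0110820 had a level of 13.05, 13.08, 13.43, 13.59 and 13.54 in the heart AL pools 1 to 5. In neuron AL, the next group, the pools read 8.41, 7.95, 8.56, 8.44 and 8.45. The groups lay far apart, and the heart AL mean was 31.6-fold higher than the neuron AL mean, 36.2-fold higher than muscle, 37.5-fold higher than germ line and at least 42.0-fold, 34.7-fold and 28.1-fold higher than gut, tubule and fat body. FBtr0089014 followed the same course, with a correlation of 0.985 to FBtr0110820 over the 82 arrays, and its heart AL mean of 12.84 ± 0.21 (SD, n = 5) was 25.1-fold above neuron AL. FBtr0082745 had an AL margin of 4.43 and a correlation of 0.953 with FBtr0110820. Whether transcripts this alike share a gene or probes was not tested. Among the 178 members 24 had another member at a correlation above 0.98, and 49 had an identifier numbered next to that of another member.

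FBtr0085616 was measured on every array of heart AL at 10.67 to 11.57, with a mean of 11.20 ± 0.37 (SD, n = 5), and on no array above background in tubule, fat body, gut or neuron AL. Its heart AL level was at least 7.87-fold above tubule and at least 6.37-fold above fat body. FBtr0075099 showed the widest spread of the named members outside heart. It lay between 12.41 and 13.42 in heart AL, between 8.59 and 9.13 in neuron AL, and between 6.74 and 11.12 in tubule AL.

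The members with the largest margin for the other next tissues were dimmer in heart. FBtr0072334, with fat body next, had a heart AL mean of 10.04 ± 0.11 (SD, n = 5) and was at least 2.85-fold above fat body AL, where no array was above background. FBtr0088022, with muscle next, had 9.72 ± 0.21 in heart AL and 7.19 ± 0.36 (n = 6) in muscle AL, where only some arrays were above background. FBtr0085503, with gut next, had 8.59 ± 0.31 in heart AL and was above background on no array of fat body, gut, muscle, neuron or tubule AL. Its heart AL level was at least 1.57-fold above gut, 1.29-fold above tubule and 1.05-fold above fat body, so a 2-fold lead in message is not shown. FBtr0084087, with germ line next, had 9.30 ± 0.23 in heart AL against 7.46 ± 0.27 (n = 6) in germ line AL, a margin of 1.84. It was at least 1.71-fold above fat body AL, where no array was above background.

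**Figure D2:**
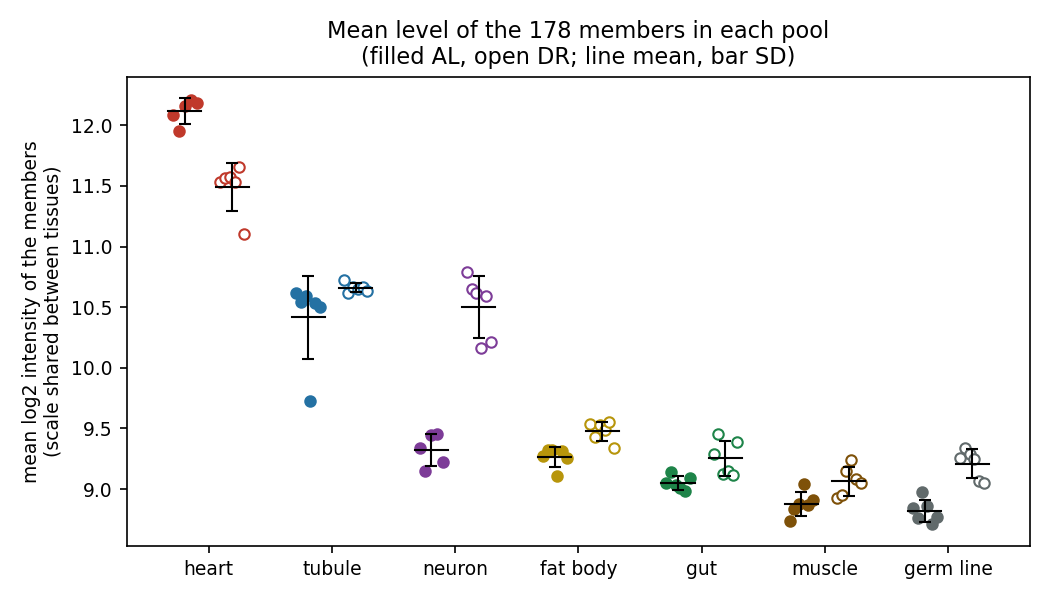
Mean log2 intensity of the 178 members in each pool (points, filled AL and open DR; line mean, bar SD) for the 7 tissues, on the scale shared between tissues. Heart AL lies highest at 12.12, heart DR lies at 11.49, and neuron moves from 9.32 in AL to 10.50 in DR, next to tubule DR at 10.66; tubule AL pool 4 and heart DR pool 6 lie below their groups.

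On DR food, which entered the choice only through the shared scale, heart was still the highest of the 7 tissues for most members, but by less. Only the AL margin had to reach 1, so whether food made the lead smaller was not tested. The mean over the members was 11.49 ± 0.20 (SD, n = 6) in heart DR, above 10.66 ± 0.04 (n = 6) in tubule DR and 10.50 ± 0.25 (n = 6) in neuron DR. Fat body had 9.48 ± 0.08, gut 9.25 ± 0.15, germ line 9.21 ± 0.12 and muscle 9.06 ± 0.12 (n = 6 each). The lowest heart DR pool, pool 6, still lay above the highest tubule pool (10.72) and the highest neuron pool (10.79), while the tubule and neuron pools overlapped. Heart had the highest DR mean for 114 members, or 64.0%, against 4.66% of all transcripts. The DR margin, heart DR minus the highest other DR group, had a median of 0.24 over the members and ran from -2.24 to 3.43. It was 1 or more in 25 members, where 0.204% of all transcripts reached it. These 25 were 73.5% of the 34 transcripts that the same rule would choose from DR pools. In 38 members every heart DR pool lay above every other DR pool, as in 0.589% of all transcripts. Without heart DR pool 6 the mean in heart DR was 11.57 ± 0.05 (n = 5), heart was highest for 120 members, the median DR margin was 0.32, 28 members reached a margin of 1, and the members with all heart DR pools on top numbered 67.

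Limma's moderated test compared heart DR with each other DR group across all transcripts, with Benjamini-Hochberg adjustment and a call at an adjusted p below 0.05. Heart DR was above all 6 other groups, each by the test, for 69 members (38.8%), against 1.4% of all transcripts. Another tissue was above heart by the test for 38 members (21.3%), against 83.8% of all transcripts. Against the mean of the 6 other groups heart DR was higher for 169 members (94.9%), against 28.7% of all transcripts. Without heart DR pool 6 the members leading in all 6 comparisons numbered 73, another tissue was above heart for 32, and heart lay above the mean of the others for 168. On the deposited values with no scaling between tissues, which lower the median difference of all transcripts from 0.01 to -0.35, 20 members and 27 transcripts in all led in DR, and another tissue was above heart for 118 members. With each array centred on its median, 42 members led.

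**Figure D3:**
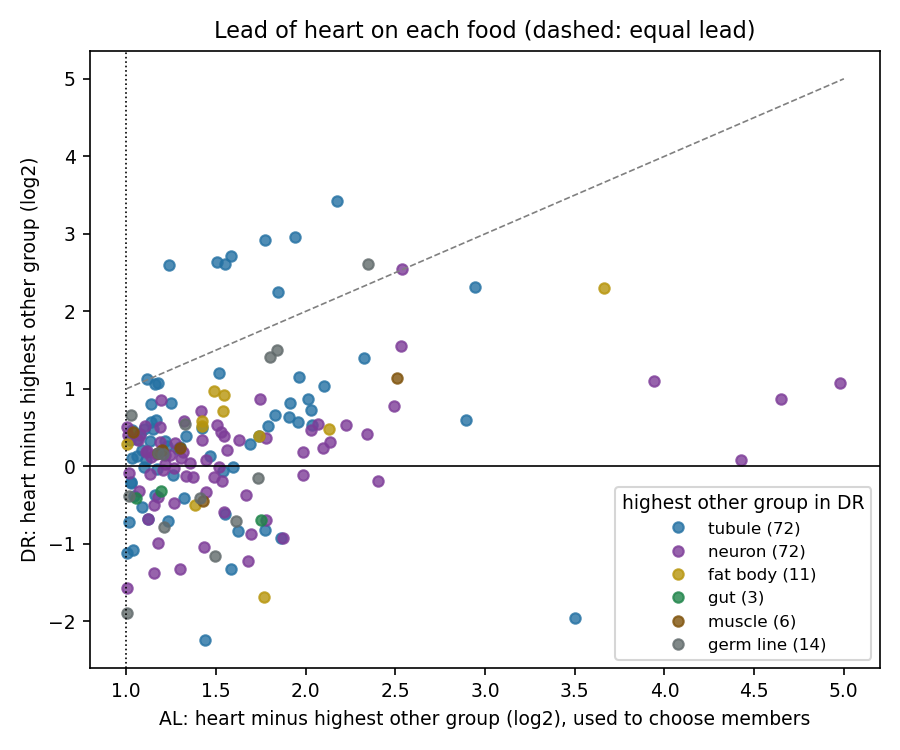
Heart minus the highest other group in log2 units on AL food (x axis, used to choose the members) and on DR food (y axis) for the 178 members, coloured by the highest other group in DR; the dashed line marks an equal lead and the dotted line the threshold of 1. Most points lie below the dashed line, 114 lie above 0 on the y axis, and tubule and neuron are the highest other group for 72 members each.

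Neuron and tubule were the tissues that came nearest to heart on DR food, and the order of heart and neuron depended on the scaling. Heart DR was above neuron DR for 103 members and below it for 17, against 34.5% and 25.5% of all transcripts. The median distance of heart from neuron was 0.55 log2 units in DR, beside 2.50 in AL, where the choice required at least 1 from every tissue. On the deposited values the balance turned, with heart above neuron for 54 members and below it for 82 (14.1% and 61.2% of all transcripts), and the median difference was -0.31 over the members and -0.65 over all transcripts. After cyclic loess heart was above neuron for 83 and below it for 27. Against tubule DR, heart was above for 122 members and below for 15, against 38.7% and 32.5% of all transcripts, and the median distance was 0.64 in DR beside 1.53 in AL. These counts for tubule were 75 and 31 on the deposited values (39.6% and 43.8% of all transcripts) and 92 and 29 after cyclic loess. Without heart DR pool 6, heart was above neuron for 107 and below it for 14, with a median distance of 0.68, and above tubule for 127 and below it for 12, with 0.74. The 4 other tissues stayed well below heart. Heart DR was above fat body DR for 164 members (40.8% of all transcripts), above gut for 165 (37.8%), above muscle for 162 (30.7%) and above germ line for 161 (31.4%). It was below them for 3, 2, 1 and 4 members, against 32.4%, 30.6%, 29.3% and 38.5% of all transcripts. On the deposited values heart was below germ line for 23 members, where 80.1% of all transcripts were. The median distances in DR were 2.00 log2 units from fat body, 2.07 from gut, 2.08 from germ line and 2.43 from muscle, and without heart DR pool 6 they were 2.05, 2.16, 2.19 and 2.48. Of the 64 members in which heart was not highest, neuron was highest in 28, tubule in 23, germ line in 7, gut in 3, fat body in 2 and muscle in 1.

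Members that led in heart DR were found with each tissue next in AL. Over all 178 members 38.8% led and 21.3% had another tissue above heart, against 1.4% and 83.8% of all transcripts. Among the 119 members with tubule next in AL, 46 led in heart DR by all 6 tests, and another tissue was above heart in 25. Among the 16 with neuron next, 6 led and 3 had another tissue above heart, and among the 9 with fat body next these counts were 5 and 2. Members with an AL margin of 2 or more led in 19 of 27 cases, and those under 1.5 in 29 of 103.

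The widest leads in heart DR belonged to FBtr0076082 and FBtr0076081, whose levels had a correlation of 0.979 over the 82 arrays. FBtr0076082 read 12.98, 13.08, 12.94, 12.93, 12.99 and 12.50 in the heart DR pools 1 to 6, with pool 6 the lowest. In tubule DR, the next group, its pools had a mean of 9.48 ± 0.43 (SD, n = 6) and reached 10.06 at most, so that the groups did not overlap. Its heart DR mean was 10.8-fold above tubule DR (log2 difference 3.43 ± 0.24 SE, adjusted p = 2.27e-21, limma) and 69.3-fold above germ line DR (6.11 ± 0.24, adjusted p = 2.2e-35). FBtr0076081 lay 2.96 ± 0.16 above tubule DR (adjusted p = 1.73e-27), or 7.8-fold. In AL their margins over tubule were 2.18 and 1.94. Both were lower in tubule on DR food than on AL food, FBtr0076082 by 2.21 ± 0.24 (SE) and FBtr0076081 by 2.26 ± 0.16 on the log2 scale (adjusted p = 4.54e-12 and 1.69e-19). Tubule AL was the group that set their AL margins, so these changes and p-values are a description. In tubule AL, FBtr0076082 read 10.30 in pool 4 and 11.54 to 11.62 in the 5 others, and pool 4 still lay above every tubule DR pool.

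FBtr0088022 and FBtr0084087 also led in heart DR by all 6 tests. FBtr0088022 had a DR margin of 2.55 over neuron DR (adjusted p = 3.63e-18), where only some arrays were above background. This was close to its AL margin of 2.54 over muscle. Its heart DR pools ran from 9.70, in pool 6, to 10.87. FBtr0084087 lay 2.82-fold above germ line DR (adjusted p = 1.55e-08). FBtr0110820 kept a lead of 1.07 ± 0.28 over neuron DR (adjusted p = 0.000811), or 2.10-fold, and FBtr0089014 one of 0.86 ± 0.25 (adjusted p = 0.002). FBtr0085616 lay 2.30 ± 0.25 above fat body DR (adjusted p = 2.92e-13), where only some fat body arrays were above background. For FBtr0082745 the difference from neuron DR was 0.08 ± 0.23 (adjusted p = 0.787), and for FBtr0075099 it was 1.10 ± 0.54 (adjusted p = 0.0699), so neither was separated from neuron by the test.

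Other members ended below another tissue on DR food. FBtr0112561, the member with the smallest AL margin, read 11.33, 11.14, 11.78, 11.78, 11.63 and 11.19 in the heart DR pools 1 to 6 and 13.35, 13.11, 13.25, 12.47, 13.39 and 12.69 in the neuron DR pools. Every neuron pool lay above every heart pool, and heart was 2.97-fold lower (log2 difference -1.57 ± 0.20 SE, adjusted p = 3.81e-10). FBtr0087949 lay below germ line DR, with 8.29 ± 0.36 (SD, n = 6) in heart and 10.18 ± 0.30 (n = 6) in germ line (difference -1.89 ± 0.19 SE, adjusted p = 1.73e-14). FBtr0085503 lay below neuron DR by -0.92 ± 0.17 (adjusted p = 4.48e-06), where only some arrays were above background. The lowest DR margins were those of FBtr0077686, at -2.24 ± 0.20 against tubule (adjusted p = 1.08e-16), and FBtr0074389, at -1.95 ± 0.31 against tubule (adjusted p = 1.09e-07). For FBtr0074389 only some tubule DR arrays were above background.

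**Figure D4:**
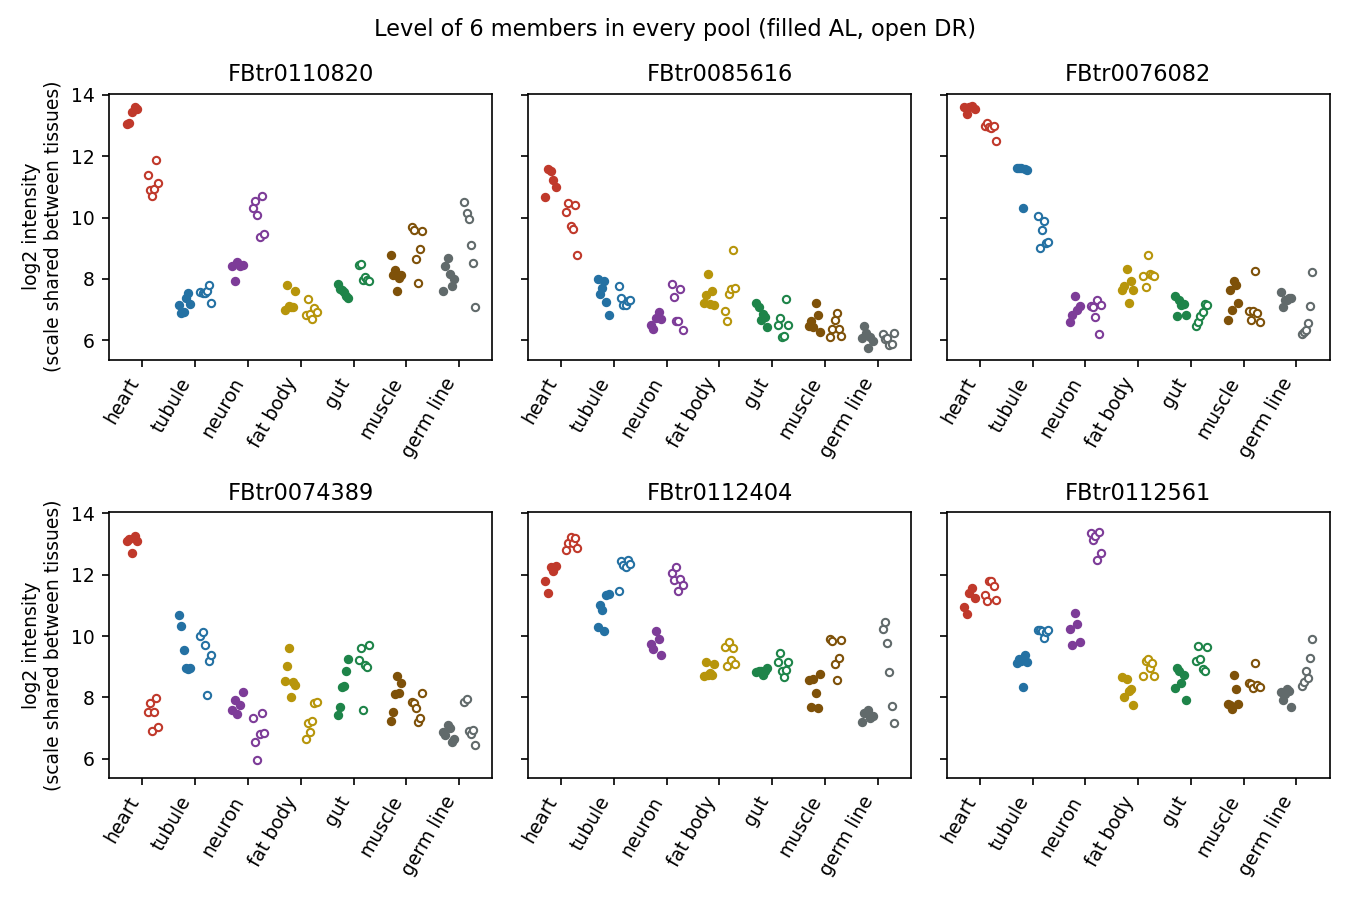
Log2 intensity, on the scale shared between tissues, of 6 members in every pool of the 7 tissues (filled AL, open DR). FBtr0076082 stays highest in heart on both foods, FBtr0074389 drops in heart from 13.07 in AL to 7.46 in DR, and FBtr0112561 is highest in neuron DR.

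Within heart, members were more often lower than higher on DR food. The values here are DR minus AL on the deposited log2 scale. The AL pools also chose the members, so the counts are a description read beside those of all transcripts. The AL means of the other tissues entered the choice too. The changes and p-values of named members below, in heart and elsewhere, are likewise a description. By limma's test 86 members (48.3%) fell in heart and 7 (3.93%) rose, against 27.1% and 25.1% of all transcripts. The median change was -0.45 over the members and -0.03 over all transcripts, and 143 members had a value below 0. A fall of at least 2-fold passed the test in 37 members, against 4.68% of all transcripts, and a rise of that size in 1, against 7.32%. In 87 members every DR pool lay below every AL pool (26.9% of all transcripts), and in 5 every one lay above (21.1%). The mean over the members was 11.48 to 11.72 in the heart AL pools and 10.71 to 11.22 in the DR pools, so the foods did not overlap. Without heart DR pool 6 the median was -0.36, with 76 members lower and 7 higher, 33 falls and 2 rises of at least 2-fold, and the pools of the foods stayed apart in 87 of the members lower in DR. The 7 rises were 21 with array weights, 15 after cyclic loess and 14 in a fit of heart arrays alone.

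Other measures moved with food in heart. The median log2 intensity of the control probes was 5.52 ± 0.16 (SD, n = 5) in heart AL and 5.20 ± 0.05 (n = 6) in heart DR on the deposited scale. The rise of intensity along the transcript was 0.44 ± 0.01 log2 units per kb in AL and 0.52 ± 0.02 in DR. Their part in the result was not tested. The median change of the members was -0.48 from the earlier probes alone and -0.38 from the later ones. By mean level over all arrays, the 81 members above the median transcript had a median change of -0.16, as had all transcripts above it, and the 97 below it had -0.70, where all transcripts below it had 0.24.

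**Figure D5:**
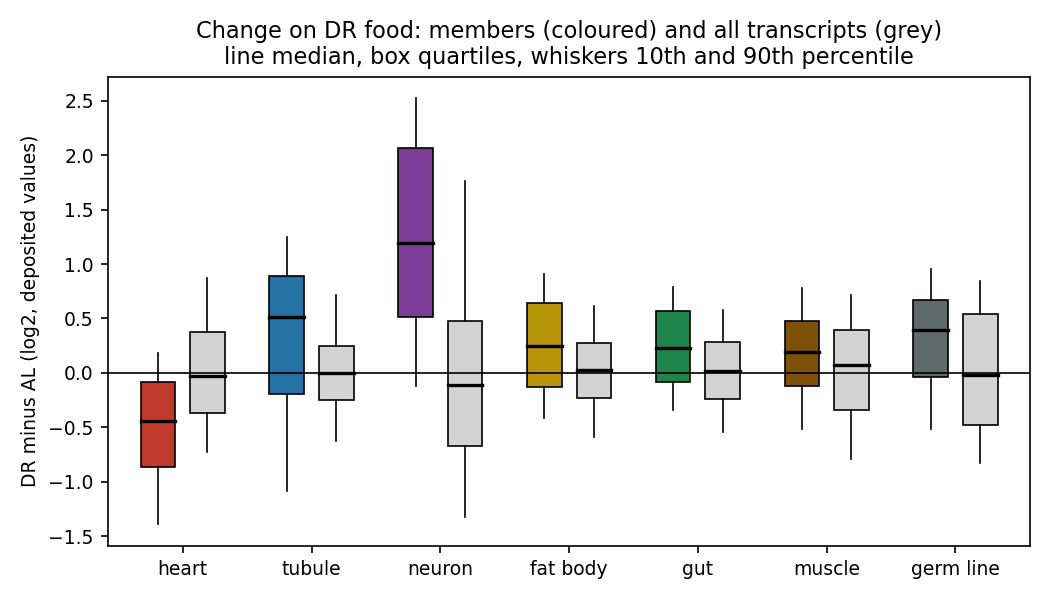
DR minus AL (log2, deposited values) in each tissue for the 178 members (coloured boxes) and all 16637 transcripts (grey boxes); line median, box quartiles, whiskers 10th and 90th percentile. The median of the members is -0.45 in heart, 0.51 in tubule and 1.20 in neuron, and the grey medians lie between -0.11 and 0.07.

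The falls in heart were largest in FBtr0074389 and FBtr0077686. FBtr0074389 had a deposited log2 intensity of 12.50, 12.58, 12.15, 12.67 and 12.51 in the heart AL pools 1 to 5, and of 7.56, 7.84, 6.96, 7.55, 7.98 and 7.09 in the DR pools 1 to 6. The foods were fully apart, and the transcript was 31.6-fold lower in DR (log2 change -4.98 ± 0.36 SE, adjusted p = 2.5e-19). In tubule, where only some DR arrays were above background, its change was -0.17 ± 0.34 (adjusted p = 0.757). Its tubule pools spread over 8.93 to 10.69 in AL and 8.07 to 10.14 in DR on the shared scale. It was also called lower in fat body (adjusted p = 0.000175), where no DR array was above background, and in neuron (adjusted p = 0.0081), where only some DR arrays were, so no size is given for either. FBtr0077686 had 12.01 to 12.26 in the heart AL pools and 7.84 to 9.54 in the DR pools, a change of -3.30 ± 0.21 (adjusted p = 2.18e-22). It also fell in muscle, by 0.96 ± 0.20 (adjusted p = 4.31e-05), in fat body, by 0.90 ± 0.20 (adjusted p = 0.000122, with only some DR arrays above background), and in germ line, by 0.54 ± 0.20 (adjusted p = 0.0126). It rose in neuron by 1.46 (adjusted p = 2.95e-09), and its changes in gut and tubule were 0.13 ± 0.20 (adjusted p = 0.634) and 0.01 ± 0.20 (adjusted p = 0.967).

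The members with the largest AL margins were among those lower in heart DR. The AL values that gave these margins, in heart and in the other tissues, are also subtracted here. The changes and their p-values are therefore a description. FBtr0110820 had a deposited log2 intensity of 12.46, 12.50, 12.83, 12.99 and 12.94 in the heart AL pools 1 to 5. In the DR pools 1 to 6 it had 10.91, 10.45, 10.28, 10.49, 11.35 and 10.66. No DR pool reached an AL pool, and the change was -2.05 ± 0.25 (SE, adjusted p = 2.29e-10). It rose over the same diets in neuron by 1.82 ± 0.25 (adjusted p = 7.42e-10), in muscle by 0.74 ± 0.23 (adjusted p = 0.0063) and in germ line by 0.74 ± 0.23 (adjusted p = 0.0047).

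The rises in heart were largest in FBtr0112404 and FBtr0112768. FBtr0112404 had 11.27, 10.92, 11.71, 11.56 and 11.74 in the heart AL pools 1 to 5 and 12.25, 12.44, 12.63, 12.46, 12.60 and 12.29 in the DR pools 1 to 6. Every DR pool lay above every AL pool, with a change of 1.00 ± 0.25 (SE, adjusted p = 0.000499). It also rose in neuron by 2.19 (adjusted p = 1.51e-12), in tubule by 1.48 (adjusted p = 2.23e-07), in germ line by 1.08 (adjusted p = 6.32e-05), in muscle by 0.94 (adjusted p = 0.00064) and in fat body by 0.68 (adjusted p = 0.0167), where only some AL arrays were above background. FBtr0112768 had 11.62 to 12.00 in heart AL and 12.59 to 13.02 in heart DR, a change of 1.00 ± 0.29 (adjusted p = 0.0031). It rose in neuron by 3.18 (adjusted p = 5.54e-16), in fat body by 1.71 (adjusted p = 4.59e-07), in tubule by 1.67 (adjusted p = 6.07e-07) and in gut by 1.40 (adjusted p = 3.79e-05).

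Outside heart, members were more often higher than lower on DR food, most of all in neuron. In neuron 132 members (74.2%) rose and 12 fell, against 28.4% and 37.6% of all transcripts, with a median change of 1.20 where all transcripts had -0.11. In 107 members every neuron DR pool lay above every neuron AL pool, as in 22.1% of all transcripts, and a rise of at least 2-fold passed the test in 100 members, as in 16.9%. In tubule 96 members rose and 28 fell, against 20.4% and 19.4%, with a median of 0.51. The pools of the foods did not overlap in 76 of the members higher in tubule DR, as in 17.0% of all transcripts. Changes of at least 2-fold passed the test upward in 36 members and downward in 21, against 6.0% and 5.12%. Without tubule AL pool 4, 80 members rose and 34 fell, with a median of 0.39, and 23 rose and 24 fell by at least 2-fold. In germ line 80 rose and 27 fell, against 34.2% and 36.8% of all transcripts, in fat body 66 and 15 against 20.3% and 17.3%, and in gut 62 and 17 against 18.1% and 17.8%. In muscle 53 rose and 27 fell, against 27.8% and 27.3%, a share of rises near that of all transcripts. The median changes were 0.40 in germ line, 0.25 in fat body, 0.23 in gut and 0.20 in muscle. The AL means of these tissues also entered the choice.

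Taking the tissues jointly, the falls in heart and the rises elsewhere were in part the same members. A fall in heart with a rise in neuron was seen in 47 members, against 4.17% of all transcripts, and a fall in heart with a rise in tubule in 21, against 2.07%. Both heart and tubule were lower in 25 members, and in 10.8% of all transcripts. Neuron and tubule both rose in 92 members, against 14.9%. Of the 85 members not called in heart, 79 rose in neuron and 71 in tubule. Among all transcripts, 14.7% were not called in heart and rose in neuron, and 9.92% were not called in heart and rose in tubule. Of the 86 members that fell in heart a smaller part rose, 47 in neuron and 21 in tubule. A rise in at least 1 of the 6 other tissues was found for 155 members, against 62.2% of all transcripts, and in all 6 for 13, against 3.5%. Of the members, 22 fell in heart and rose in no other tissue, against 19.3% of all transcripts. Without tubule AL pool 4, the fall in heart went with a rise in tubule in 19 members and with a fall in tubule in 31. Neuron and tubule then both rose in 76, 57 of the 85 rose in tubule, and 10 rose in all 6 tissues. Without heart DR pool 6, the fall in heart went with a rise in neuron in 40 members, with a rise in tubule in 14 and with a fall in tubule in 23, and 19 members fell in heart and rose in no other tissue.

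The heart changes were also read by the next AL tissue. Over all 178 members 48.3% fell in heart and 3.93% rose, against 27.1% and 25.1% of all transcripts. Of the 119 members with tubule next, 60 fell in heart and 1 rose, with a median change of -0.49. Of the 9 with fat body next 7 fell, with a median of -0.84, and of the 13 with gut next 8 fell, with -0.64. Of the 9 with muscle next 3 rose, with a median of -0.08. For neuron next the counts were 8 lower and 2 higher of 16, with a median of -0.54. For germ line next they were 3 lower and 1 higher of 12, and the median was above 0, at 0.14. Without heart DR pool 6, 52 of the 119 with tubule next fell, 6 of those with fat body next and 7 of those with gut next, and the medians were -0.42 for tubule, -0.80 for fat body, -0.54 for gut, -0.06 for muscle, -0.47 for neuron and 0.16 for germ line. The differences between these groups were not tested.

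Among transcripts that were not members, FBtr0290264, FBtr0072276 and FBtr0079271 followed the mean profile of the members most closely over the 14 group means, with Pearson correlations of 0.943, 0.938 and 0.937. FBtr0072276 was above background on only some heart AL arrays and on no tubule array of either food, so no difference is given for it. In FBtr0290264 and FBtr0079271 heart was the highest AL group, by 0.82 and 0.75 log2 units over tubule. FBtr0079271 led in heart DR, at 0.78 ± 0.17 (SE) above tubule (adjusted p = 5.39e-05), whereas FBtr0290264 lay 0.13 ± 0.15 above tubule (adjusted p = 0.439).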

How the data were processed

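The authors' deposited values are linear Cy3 intensities for 137098 probes on 82 arrays, 132998 of them for 16637 transcripts and 4100 random controls. Per the labels' protocols the pulled-down RNA was amplified with a whole-transcriptome kit, and pulldowns and labelling were randomised over groups. For the scanner, any background correction and the annotation, the sources used here name nothing. Log2 intensities were averaged over a transcript's probes. Levels and tissue differences were taken after quantile normalizing the 82 arrays together, on the assumption of 1 distribution shared by the tissues. Food differences within a tissue were taken on the log2 scale as deposited. All arrays entered a limma 3.58.1 model (R 4.3.3) of 14 groups with 68 residual degrees of freedom. It was fitted separately on the quantile-normalized and on the deposited log2 values. Two-sided moderated p-values were adjusted over all 16637 transcripts. The number of arrays limits the precision. The fit was tested on simulated data. Python 3.11.15, numpy 2.4.6, pandas 2.3.3 and matplotlib 3.10.9 were used.

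The members and lists were chosen with earlier results of these data known. Named transcripts are the 5 members with the largest AL margins, the 2 nearest the threshold on each side, the largest margin for each next tissue, the 2 that rose and the 2 that fell most in heart among those with separated pools, the 2 largest and 2 smallest DR margins, and the 3 most alike other transcripts. Bounds marked "at least" use the mean background of the dim group, or the transcript's own level where higher. The names file, built on assembly Release 6 plus ISO1 MT, pairs 16 transcripts with 1 gene, 28 with several and 16593 with none. The labels call each sample a pool of flies, and nothing says that pools came from separate cultures, so p-values measure the spread between these pools. Alternatives were other scalings, probe summaries, filters, samples, array weights, blocks on pool number (over all tissues or within a tissue), and each pool left out. Same-numbered AL and DR pools of a tissue deviated together with correlations from -0.44 to 0.77 over 40 pairs, so the numbers were not taken to pair the samples.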

Additional observations from a re-analysis of the deposited data

Results flagged for a closer look

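The mean level of the 178 members and the levels of the named members in heart were looked at for a single pool far from its group, in 48 groups of values in all, of which chance alone flags about 1 in 20. A total of 6 pool values stood out. The mean level of the members was 9.72 in tubule AL pool 4 against 10.50 to 10.61 in the 5 others, 11.10 in heart DR pool 6 against 11.53 to 11.66, and 9.11 in fat body AL pool 4 against 9.26 to 9.32. Heart DR pool 6 was also far from the 5 others in FBtr0088022, at 9.70 against 10.59 to 10.87, in FBtr0076082, at 12.50 against 12.93 to 13.08, and in FBtr0076081, at 11.92 against 12.60 to 12.75. These 3 transcripts and the mean of the members share the same pool, so they are not independent.

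In 9 cases every heart DR pool lay below every heart AL pool while in another tissue every DR pool lay above every AL pool. The difference between the tissues was not tested, and the AL pools also chose these members. FBtr0110820 changed by -2.05 in heart, against 0.64 in gut and 1.82 in neuron. FBtr0089014 had -2.06 in heart, against 0.62 in gut and 1.64 in neuron. Both were above background on no gut AL array, so these gut values are differences from an undetected group. In neuron the values were 1.85 for FBtr0082745 (heart -2.25, and above background on only some neuron AL arrays), 0.87 for FBtr0075099 (heart -1.84, and in neuron an adjusted p of 0.1899 by limma), 1.46 for FBtr0077686 (heart -3.30) and 2.41 for FBtr0085503 (heart -0.90), which was above background on no neuron AL array. FBtr0087949 had 0.65 in germ line against -1.56 in heart.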

How the results depend on the processing

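The rule chose 64 transcripts on the deposited values, 103 after cyclic loess, 27 at a margin of 2 and 34 from DR pools. Members leading in heart DR were 42 with arrays centred on the median and 20 on the deposited values, where all transcripts leading were 91 and 27. Another tissue was above heart for 118 members on the deposited values and for 25 with the dimmest 25% of transcripts left out, which kept 154 members. The median change in germ line was 0.29 after cyclic loess, 0.32 without the dim transcripts and 0.52 after quantile normalization. Members higher in heart DR were 21 with array weights, whose estimation stopped before convergence, 15 after cyclic loess and 14 in heart arrays alone. After cyclic loess 15 were lower in muscle, 5 were lower in neuron, and the neuron median was 1.72. Heart DR minus the mean of the others changed sign for FBtr0087949 (0.38, centred arrays), FBtr0085066 (-0.30, deposited values), FBtr0077686 (-0.58, earlier probes) and FBtr0290264 (-0.091, later probes). Counts of members against single DR tissues moved too. On the deposited values heart was above neuron for 54, above tubule for 75, and below neuron for 82, tubule for 31, germ line for 23, gut for 4 and muscle for 4. After cyclic loess it was below neuron for 27, tubule for 29 and each of the 4 other tissues for at most 5. In the other settings that moved such a count by over 1.5 times, all of them with heart below, the counts were at most 8 members, against 1 to 4 as reported. The other recomputed values of the counts and medians named here stayed within 1.5 times the reported count or 1 SD of the pools. Among the single named transcripts, 30 values no longer passed the threshold that the reported value passed, and 9 newly passed it. The cause of the changes was not tested. The earlier and later probes, the choice without tubule AL pool 4 and the other counts without tubule AL pool 4 or heart DR pool 6 were added after seeing the data. Of those counts, rises of at least 2-fold in tubule moved from 36 to 23, members with every heart DR pool on top from 38 to 67, and rises of at least 2-fold in heart from 1 to 2.

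Leaving out 1 pool at a time, the rule chose 155 to 188 transcripts, 64 to 73 members and 205 to 250 transcripts in all led in heart DR, 32 to 38 members had another tissue above heart, and 165 to 168 lay above the mean of the others. Higher and lower counts ran over 6 to 8 and 75 to 88 in heart, 129 to 135 and 11 to 13 in neuron, 80 to 98 and 25 to 34 in tubule, 74 to 86 and 23 to 33 in germ line, 55 to 66 and 14 to 17 in fat body, 48 to 63 and 13 to 19 in gut, and 44 to 54 and 25 to 28 in muscle. The medians ran over -0.48 to -0.36 in heart, 1.12 to 1.29 in neuron, 0.39 to 0.56 in tubule, 0.34 to 0.40 in germ line, 0.22 to 0.30 in fat body, 0.21 to 0.28 in gut and 0.15 to 0.23 in muscle. With pool number over all tissues as a replicate block, 69 members led in heart DR. With same-numbered AL and DR pools of a tissue as a block, 9 rose and 78 fell in heart with a median of -0.36, and 139 rose in neuron. Heart AL has no pool 6, so the block within tissues leaves heart DR pool 6 without a partner.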
